A study of Macaca fascicularis with 12 samples.

Results

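The 9 Toll-like receptors TLR1 to TLR9 and LY96, the gene of the TLR4 partner protein MD-2, were examined in macaque brain injected with a baculovirus. Every probe set whose only gene symbol in the array's annotation was one of these 10 names was taken. This gave 15 probe sets, 3 each for TLR4 and TLR7, 2 for TLR6 and 1 for each other gene, of 52865 on the array, and 10 of the 14132 genes that the array names by a single symbol. The 3 animals were adult male cynomolgus macaques (Macaca fascicularis). Each received 4 microinjections of the baculovirus BV-HSVtk into the left striatum, 10 µL with 1e+08 particles per site, and a mock preparation at matching sites on the right. The mock preparation was insect cell (Sf9) medium without virus that had passed the same purification, so both groups carried an injection wound and neither was untreated brain. Tissue of about 100 mg was collected 2 days later, as 2 pieces per hemisphere and 1 array per piece, which gave 6 BV and 6 mock arrays. Replicate numbers 1 and 2 are the pieces of animal 1, numbers 3 and 4 those of animal 2, and numbers 5 and 6 those of animal 3. Since the left hemisphere always received BV, an effect of side cannot be told apart from one of treatment.

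Toll-like receptors are membrane proteins of innate immune cells that bind molecules typical of microbes. In the brain they are best known from microglia, and in blood from neutrophils, monocytes and dendritic cells. TLR1, TLR2, TLR4, TLR5 and TLR6 sit on the cell surface and bind bacterial products, while TLR3, TLR7, TLR8 and TLR9 bind nucleic acids inside endosomes. TLR9 binds DNA with unmethylated CpG, which baculovirus genomes contain, and has been described as a baculovirus sensor in mouse immune cells. Once bound, the receptors signal through adaptors such as MYD88 or TICAM1 to NF-kappaB and interferon regulatory factors.

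All values below are log2(quantile-normalized signal + 3.49), called log2 values, and differences are BV minus mock. Standard errors and p-values are those of a limma fit over 31660 probe sets, with the pieces of a hemisphere averaged, the animal as a block (n = 3 animals) and Benjamini-Hochberg adjustment. In that fit 9 of 31660 probe sets passed at an adjusted p of 0.05, all higher in BV tissue, or 0.0284%. Among them, ISG15 and MX1, a ubiquitin-like and a GTPase protein induced by interferon, rose by 3.56 ± 0.13 (SE, adjusted p = 0.00539) and 3.04 ± 0.19 (adjusted p = 0.0256). The labels give brain as the tissue, and the arrays differed in region. The mean log2 value of 7 measured markers of striatal medium spiny neurons was lowest, at 5.78, in BV replicate 2 and highest, at 10.25, in mock replicate 6. That of 6 measured thalamic markers was lowest in mock replicate 6, at 6.63, and highest in mock replicate 1, at 9.29. Mock replicate 6 also had an actin 3'/5' signal ratio of 2.4, against 1.1 to 1.4 on the other arrays. Results on LY96, TLR1 and TLR2 are therefore also given without single arrays.

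Of the 15 probe sets, 5 had a mean log2 value under the limit of 4.95 set for testing and were too dim to judge. They were the only probe set of TLR3, both of TLR6, the faintest of 3 for TLR4 and the faintest of 3 for TLR7. The TLR3 probe set had a mean of 3.51, with deposited signals of 2.01 to 13.6, and lay under the median signal of its array on all 12 arrays. The TLR6 probe sets had means of 4.94, just outside the limit, and 4.53. TLR8, at 5.06, was just inside it and exceeded its array's median on 3 of 12 arrays, and TLR2, at 5.34, did so on 6 of 12. Both owed their place to the BV arrays, as their mock means of 4.69 for TLR2 and 4.78 for TLR8 were under the limit. Levels of different probe sets reflect their probes as well as the transcripts and cannot be ranked against each other.

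**Figure D1:**
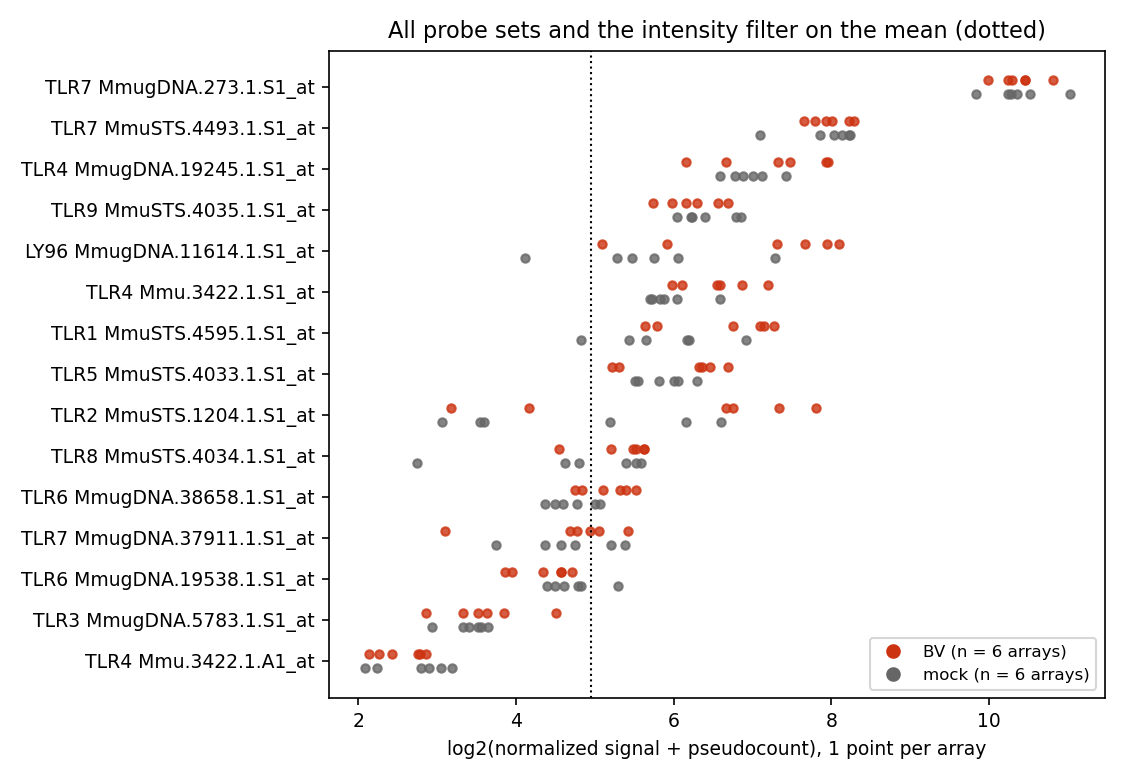
Log2 values (horizontal axis) of all 15 probe sets of TLR1 to TLR9 and LY96, 1 point per array, BV in red and mock in grey (6 arrays each). The dotted line is the limit of 4.95 on the mean over arrays, under which 5 probe sets lie, the TLR3 probe set and both of TLR6 among them.

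LY96 and its partner TLR4 form the receptor for bacterial lipopolysaccharide, with MD-2 binding the lipid. In the fit LY96 had the largest difference of the 10 genes. Its log2 values ran from 5.09 over a median of 7.48 to 8.1 on the BV arrays, and from 4.11 over 5.61 to 7.28 on the mock arrays. The groups overlapped, because the piece 1 arrays of animals 1 and 2 were low on both sides and mock replicate 4 was high. Within each replicate pair, however, the BV array was the higher one in 6 of 6. The pieces of a pair were not alike in region. Their striatal marker means differed by -3.9 to -1.1 in the pairs of replicates 2, 5 and 6 and by 0.39 to 1.23 in the others. The LY96 pair differences were 0.99 and 2.03 in animal 1, 0.44 and 0.67 in animal 2 and 1.91 and 2.03 in animal 3. The fitted difference was 1.34 ± 0.28, or 2.54-fold, with a 95% interval of 0.66 to 2.03. It did not pass over all probe sets (limma adjusted p = 0.423, unadjusted p = 0.00307). With the 6 replicate pairs as the block, a fit that treats both pieces of a hemisphere as independent samples, the adjusted p was 0.0876. In that fit 55 of 31660 probe sets passed (0.174%), with 0 of these genes among them. With 1 array or animal left out the difference was 0.84 to 1.85. Among the piece 2 arrays alone the 3 BV values, 7.31 to 8.1, lay just above the 3 mock values, 5.28 to 7.28. The piece 1 values overlapped, with 5.09 to 7.66 on BV and 4.11 to 5.75 on mock arrays. Piece 2 values were also apart for TLR2 and TLR5, with BV minima of 6.66 and 6.32 against mock maxima of 6.6 and 6.3. Piece 1 values were apart for a TLR4 probe set, with a BV minimum of 5.98 against a mock maximum of 5.88. The share of all probe sets that part in this way was not counted, so nothing is concluded from these gaps.

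TLR4 itself differed less and its probe sets did not match. The brightest had log2 values of 6.16 to 7.96 on the BV arrays (median 7.4) and 6.59 to 7.42 on the mock arrays (median 6.95). Its difference was 0.28 ± 0.24 (limma adjusted p = 0.648), with 0.01, -0.11 and 0.94 in animals 1, 2 and 3, so only animal 3 had a clear positive value. The second ran from 5.98 to 7.19 (median 6.57) on BV and from 5.7 to 6.59 (median 5.86) on mock arrays, a difference of 0.58 ± 0.20 (adjusted p = 0.564) that was positive in all 3 animals at 0.5, 0.19 and 1.06. The third was too dim, at a mean of 2.62.

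**Figure D2:**
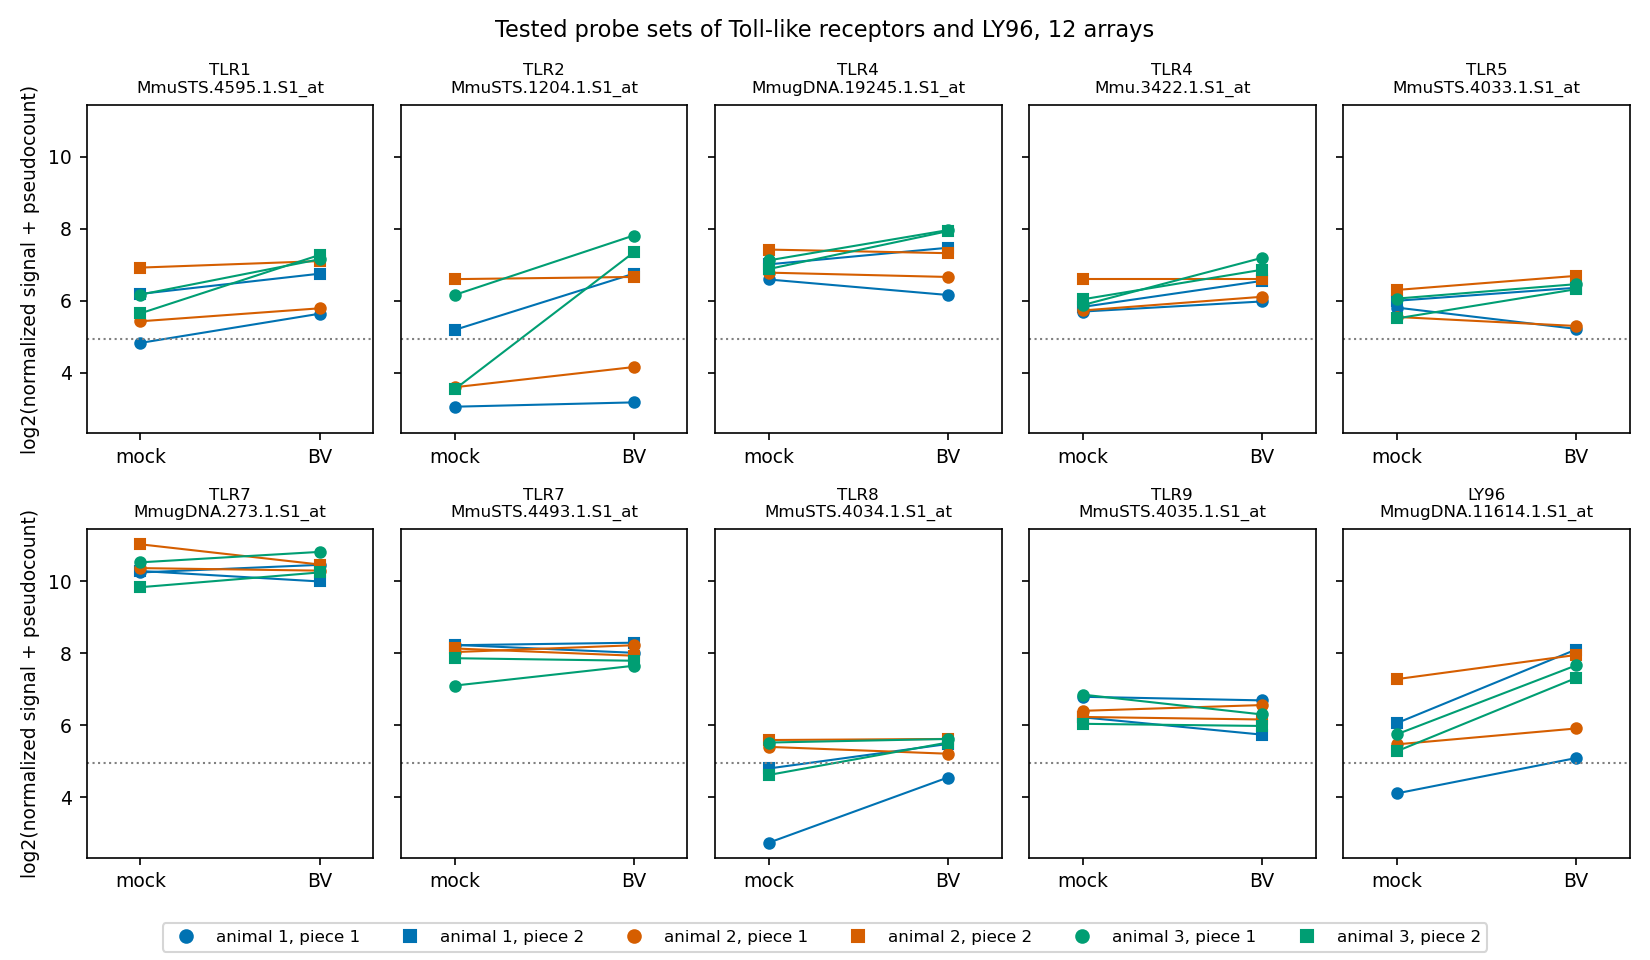
Log2 values (vertical axis) of the 10 tested probe sets on the mock and BV arrays. Each line joins the mock and BV array of a replicate pair, coloured by animal, with circles for piece 1 and squares for piece 2; the dotted line marks the limit of 4.95. LY96, TLR1 and TLR2 slope upwards in all 6 pairs, while both TLR7 probe sets and TLR9 have no common slope.

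TLR2 pairs with TLR1 or TLR6 to bind bacterial lipopeptides. TLR2 had log2 values of 3.18 to 7.81 on the BV arrays (median 6.71) and 3.06 to 6.6 on the mock arrays (median 4.4). It varied most among the 10 genes, with standard deviations of 1.86 over BV and 1.5 over mock arrays, and the piece 1 arrays of animals 1 and 2 sat near the bottom of its range in both groups. BV was higher in 6 of 6 pairs, but by 0.13 and 0.06 in the pairs of replicates 1 and 4 and by 3.8 in that of replicate 6. The fitted difference was 1.29 ± 0.45 (95% interval 0.18 to 2.41, limma adjusted p = 0.564). Animal 3, with 2.72, carried most of it, against 0.84 and 0.31 in animals 1 and 2. Without animal 3 the difference was 0.58, and without mock replicate 6 it was 0.86.

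TLR1 had log2 values of 5.64 to 7.27 on the BV arrays (median 6.93) and 4.83 to 6.92 on the mock arrays (median 5.91). The groups overlapped across animals and pieces, yet BV was higher in 6 of 6 pairs, by 0.18 to 1.62. The difference was 0.75 ± 0.22 or 1.69-fold (95% interval 0.21 to 1.3, limma adjusted p = 0.564). With 1 array or animal left out it was 0.48 to 1. The animals ranked as for TLR2 and LY96, with 0.69 in animal 1, 0.27 in animal 2 and 1.3 in animal 3. TLR6 gave opposite answers from its 2 dim probe sets. The brighter was higher on the BV array in 6 of 6 pairs, by 0.25 to 0.55, and the other was lower in 6 of 6 pairs, by -0.16 to -0.75, so no direction can be given for TLR6.

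TLR5, the flagellin receptor, had log2 values of 5.22 to 6.69 on the BV arrays (median 6.34) and 5.51 to 6.3 on the mock arrays (median 5.9). Its difference of 0.19 ± 0.19 (limma adjusted p = 0.698) had no settled direction, being -0.15 in the piece 1 and 0.52 in the piece 2 arrays.

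No tested probe set of a nucleic acid receptor had a 95% interval that left out 0. TLR9 had log2 values of 5.74 to 6.69 on the BV arrays (median 6.23) and 6.04 to 6.85 on the mock arrays (median 6.32). Its signal was above the array median on all 12 arrays, and its difference of -0.19 ± 0.15 had a 95% interval of -0.56 to 0.19 (limma adjusted p = 0.646), with a higher BV value in 1 of 6 pairs. The LY96 difference of 1.34, which itself did not pass, lies outside this interval.

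TLR7 and TLR8 bind single-stranded RNA. The brightest TLR7 probe set, at the 97.7th percentile of mean signal on the array, had log2 values of 9.99 to 10.81 on BV and 9.83 to 11.02 on mock arrays. Its difference was 0.00 ± 0.15 (95% interval -0.38 to 0.38, limma adjusted p = 0.998). The second TLR7 probe set had 7.65 to 8.29 on BV and 7.1 to 8.23 on mock arrays and differed by 0.06 ± 0.15 (interval -0.31 to 0.42). Both were higher in 3 of 6 pairs, so neither had a direction. TLR8 had log2 values of 4.55 to 5.62 on the BV arrays (median 5.5) and 2.74 to 5.59 on the mock arrays (median 5.1). Its difference of 0.56 ± 0.28 (95% interval -0.13 to 1.24, limma adjusted p = 0.569) rested largely on the pair of replicate 1, with 1.81, where the mock array was the lowest of all. In the pairs of animal 2 it was -0.19 and 0.04. TLR3, a receptor for double-stranded RNA, was too dim, as given above.

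**Figure D3:**
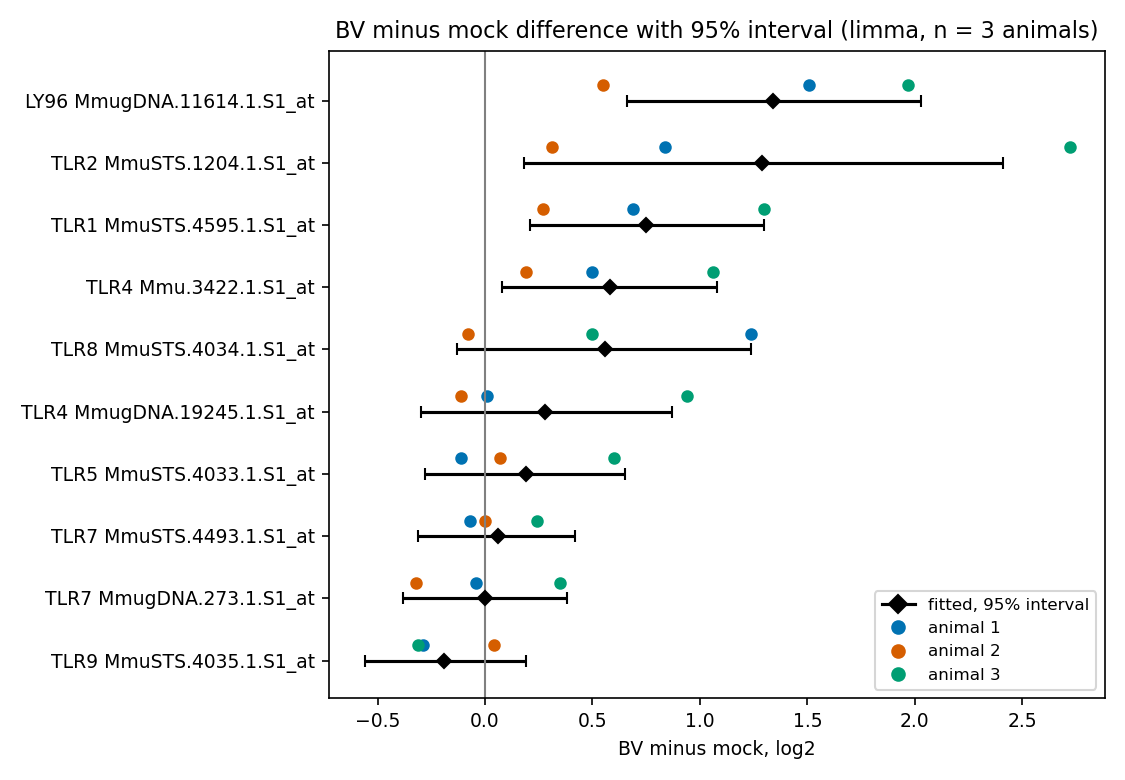
BV minus mock difference on the log2 scale (horizontal axis) of the 10 tested probe sets. Diamonds are the fitted differences with 95% intervals (limma, n = 3 animals) and coloured points the 3 animals. The interval lies above 0 for LY96, TLR2, TLR1 and 1 TLR4 probe set, and animal 2 is the lowest of the 3 animals for each of these.

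None of the 10 tested probe sets passed in limma, against 0.0284% of all tested. At an unadjusted p under 0.05, 4 of the 10 were higher (LY96, TLR1, TLR2 and 1 of TLR4) and 0 lower, against 5.15% higher and 3.65% lower over all tested. Since testing favoured probe sets that are bright in either group, all 15 were counted as well. Of these 10 were higher and 5 lower, with a median of 0.22, while 46.6% of all 52766 probe sets were higher and their median was -0.02. BV was higher in 6 of 6 pairs for 4 of the 15, against 2.82% of all, and lower in 6 of 6 for 1, against 3.8%. The count of 4 at an unadjusted p under 0.05 depended on single arrays. It was 0 without BV replicate 4 or mock replicate 3, 1 without BV replicate 2, and 2 without mock replicate 1 or without animal 3.

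The animals ranked alike for these genes. The fitted differences of LY96, TLR1, TLR2 and both tested TLR4 probe sets were smallest in animal 2 and largest in animal 3. A limma test of the animal by treatment interaction on the 12 arrays gave unadjusted p-values of 0.629 for LY96, 0.542 for TLR1 and 0.479 for TLR2, so a difference between animals was not shown, and 0 of 31660 probe sets passed that test after adjustment. When animal 2 was left out, LY96, TLR1 and TLR2 passed, at 1.74 (limma adjusted p = 0.000577), 0.99 (0.0243) and 1.78 (0.00964). In that fit of 2 animals 1845 of 31660 probe sets passed in all, against 9 with all 3 animals. As animal 2 had the smallest differences of these genes, leaving it out raises them, so nothing is concluded from that fit.

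The tested neutrophil and monocyte markers had higher values in BV tissue, with the smallest median difference in animal 2. The interferon-stimulated list was also lowest there, with medians of 2.23, 2.03 and 2.52 in animals 1, 2 and 3. Of 11 neutrophil and monocyte markers 8 had a probe set and 6 could be tested. All 6 were higher, with a median difference of 1.21, and 0 passed, while 46.9% of all tested probe sets were higher. This count includes FCN1 and leaves out CCR2 and VNN2, so it depends in part on the limit for testing. The medians of the 6 in animals 1, 2 and 3 were 1.93, 0.12 and 1.6. The summed signal of the 8 ran from 908 to 5026 on the BV arrays and from 259 to 4091 on the mock arrays. FCN1, a lectin of monocytes, differed by 1.51 ± 0.40 (limma adjusted p = 0.535). Its mean of 5 was just inside the limit for testing, and it owed this to the BV arrays, as its mock mean was 4.25. Lysozyme LYZ differed by 1.47 ± 0.40 (adjusted p = 0.544) and the calcium-binding protein S100A9 by 1.34 ± 0.41 (adjusted p = 0.564). The monocyte receptor CCR2 and the neutrophil marker VNN2 were too dim, with BV and mock means of 4.53 and 4.52 and of 4.09 and 4.02. No deposited signal of a marker was 0.

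Microglia and macrophage markers gave a smaller median of 0.18 over 13 tested genes, 9 higher and 4 lower, with 0.19, -0.02 and 0.5 in the 3 animals and summed signals of 7136 to 16967 on BV and 5350 to 11281 on mock arrays. The lysosomal protein CD68, the leukocyte phosphatase PTPRC and the complement chain C1QB differed by 1.41 ± 0.47, 1.07 ± 0.32 and 0.95 ± 0.17 (limma adjusted p from 0.323 to 0.564). The other probe set of CD68 gave -0.17, so its direction depends on the probe set. Of the 4 lower genes, the integrin chain ITGAM, at -0.62 ± 0.15 (adjusted p = 0.507), and the chemokine receptor CX3CR1, at -0.33 ± 0.17 (adjusted p = 0.569), had the largest differences and were named after their values were seen. Of 10 markers of B cells and plasmacytoid dendritic cells, which carry TLR7 and TLR9, 5 had a probe set and 3 could be tested, with a median of 0.45. These were BLNK, CD79B and TCF4, which differed by 0.63 ± 0.37, 0.45 ± 0.17 and 0.11 ± 0.14 (limma adjusted p from 0.564 to 0.748). The B cell genes MS4A1 and CD79A were too dim. Summed signals of that list were 522 to 1055 on BV and 388 to 953 on mock arrays. The other lists were followed by counts and medians only. The 4 tested T and NK cell genes had a median of 0.44 (0.29, 0.29 and 0.72 in animals 1, 2 and 3), 5 astrocyte genes one of 0.00 and 5 endothelial genes one of 0.19, with 0 passing. In whole tissue, more cells of a type and more RNA per cell cannot be told apart, and the part of these cells in the differences of LY96, TLR1 and TLR2 was not tested.

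Median differences of the regional lists also varied among the animals, though no probe set passed the interaction test after adjustment. The striatal list had a median of -0.97, made of -1.64, 0.99 and -2.28 in animals 1, 2 and 3, and the thalamic list a median of 0.61, made of 0.67, 0.48 and 0.9. The striatal mean differed by -3.9, -2.79 and -1.1 in the pairs of replicates 2, 5 and 6, and these were the 3 pairs with the largest LY96 and TLR2 differences. TLR1 differed by 0.81 in the pair of replicate 1, where the striatal mean was higher by 0.79, and by 0.57 in that of replicate 2. In the pairs of replicates 1, 3 and 4 the striatal mean was higher by 0.39 to 1.23. There LY96 differed by 0.44 to 0.99 and TLR2 by 0.06 to 0.56. The part of regional makeup in these results was not tested.

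**Figure D4:**
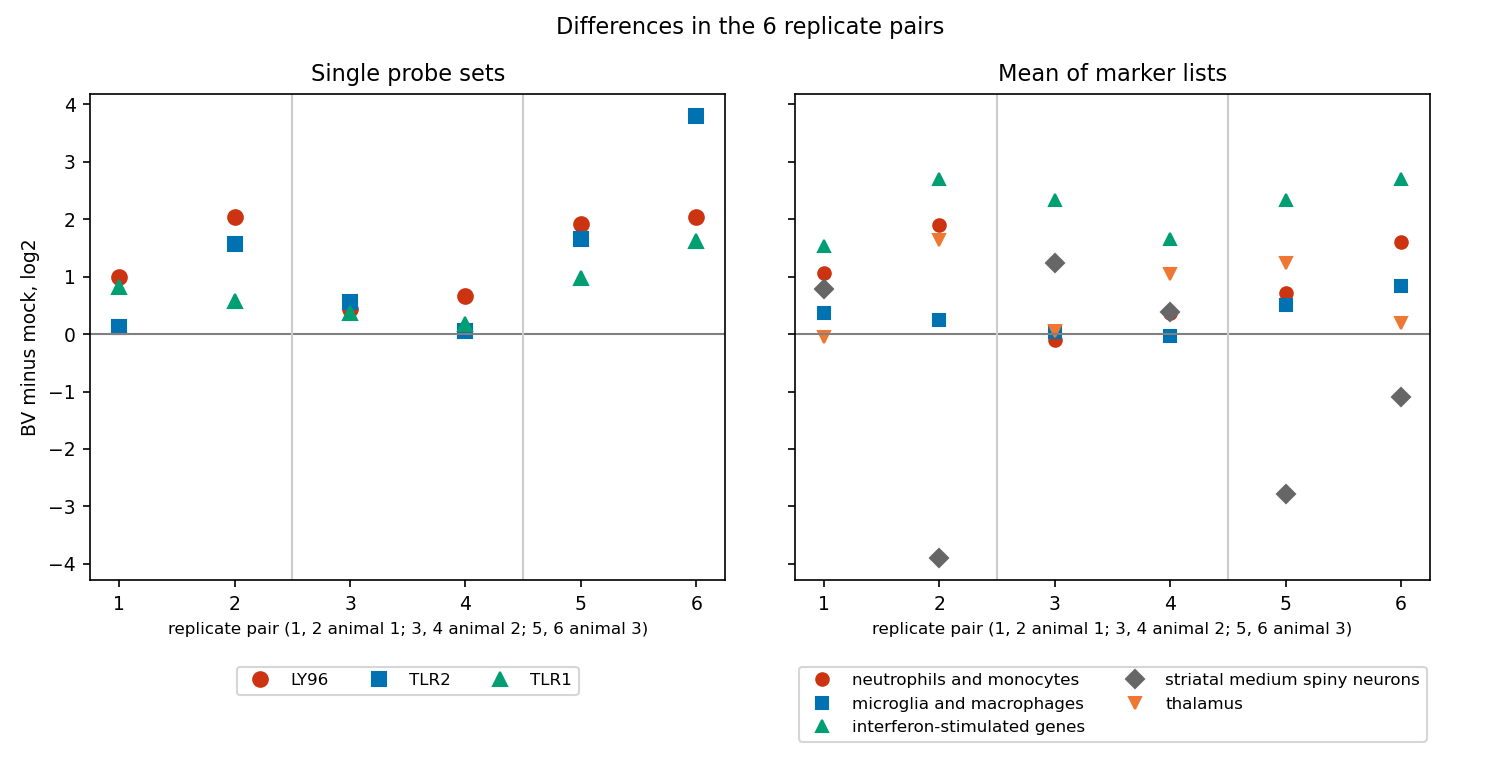
BV minus mock difference on the log2 scale (vertical axis) in the 6 replicate pairs (horizontal axis), for the LY96, TLR2 and TLR1 probe sets on the left and for the mean of 5 marker lists on the right. LY96 ranges from 0.44 to 2.03; the interferon-stimulated list stays between 1.53 and 2.69 in all 6 pairs, the neutrophil and monocyte list runs from -0.11 to 1.89 and the striatal list from -3.9 to 1.23.

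The genes with pair differences closest to those of LY96 were TRIM25, a ubiquitin ligase, and MS4A6A, a membrane protein of macrophages with 2 probe sets. Their root mean square distances from LY96 over 6 pairs were 0.22 for TRIM25 and 0.22 and 0.28 for MS4A6A, against a median of 1.5 over 18110 named probe sets. Closest to TLR2 were LGMN, a lysosomal protease, at 0.28, NMI, an interferon-induced protein, at 0.36 and ADORA1, an adenosine receptor, at 0.36. Closest to TLR1 were PYGL, a glycogen phosphorylase, at 0.12, MARCHF5, a mitochondrial ubiquitin ligase, at 0.13 and CFDP1 at 0.14. None of these genes passed in limma, with adjusted p of 0.375 for TRIM25 and 0.424 to 0.564 for the others.

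The rest of the pathway was taken from a list of 65 genes ordered by role, each represented by its brightest probe set. Of the 52 with a probe set 48 could be tested, 31 had higher and 17 lower values, the median difference was 0.12 and 0 passed in limma. Over all tested probe sets 46.9% were higher and the median was -0.02. At an unadjusted p under 0.05 there were 5 higher and 1 lower of the 48, against 5.15% higher and 3.65% lower over all tested. MYD88 and TICAM2 had no probe set of their own symbol.

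Among co-receptors, chaperones and related receptors 5 of 7 tested were higher, with a median of 0.14. UNC93B1, the chaperone that carries the nucleic acid receptors to endosomes, had log2 values of 6.8 to 9.59 on the BV arrays (median 8.28) and 6.18 to 7.74 on the mock arrays (median 6.92). It was higher in 6 of 6 pairs and differed by 1.28 ± 0.22 (limma adjusted p = 0.323, or 0.0714 with the replicate pairs as the block), with differences of up to 1.68 in its other probe sets. Its differences in animals 1, 2 and 3 were 1.15, 0.83 and 1.86. CD14, which hands lipopolysaccharide to MD-2, differed by 0.40 ± 0.23 (adjusted p = 0.577) and the lipopolysaccharide-binding protein LBP by -0.30 ± 0.18 (adjusted p = 0.581). TLR10 and the scavenger receptor CD36 were too dim.

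Adaptors, kinases and negative regulators had medians near 0 and none of their genes passed. The adaptors TIRAP, SARM1 and TICAM1 differed by 0.20 ± 0.17, -0.19 ± 0.26 and 0.01 ± 0.21 (limma adjusted p from 0.65 to 0.99). Of 12 kinases, ubiquitin ligases and scaffolds 7 were higher and 5 lower, with a median of 0.10. The receptor-associated kinase IRAK1 differed by -0.54 ± 0.20, with a BV value lower in 5 of 6 pairs, TBK1, a kinase that activates IRF3, by 0.49 ± 0.20 and the ubiquitin ligase TRAF6 by 0.38 ± 0.24 (adjusted p from 0.564 to 0.589). The 7 negative regulators had a median of 0.00. IL1RL1, a receptor, differed by -0.41 ± 0.17, NFKBIA, the inhibitor of NF-kappaB, by -0.26 ± 0.18 and SOCS1 by -0.17 ± 0.14. The 5 probe sets of SOCS1 ran from -0.17 to 0.65, so its direction depends on the probe set.

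Transcription factors gave a median of 0.20 over 10 genes. FOS, an immediate early factor, had log2 values of 7.77 to 10.22 on BV and 5.28 to 9.74 on mock arrays. It differed by 1.27 ± 0.41 (limma adjusted p = 0.564), with 1.2, 0.15 and 2.45 in animals 1, 2 and 3. BV was higher in 6 of 6 pairs, but by 0.13 and 0.16 in those of animal 2 and by 4.03 in that of replicate 6. NFKB1, an NF-kappaB subunit, differed by 0.48 ± 0.22 (adjusted p = 0.568). For the interferon regulatory factor IRF7 the brightest probe set gave -0.89 ± 0.64 (adjusted p = 0.608) and the other 2.07, so its direction depends on the probe set.

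The cytokines and chemokines listed as downstream had the largest median of the 6 roles, 0.77 over 9 tested genes, 8 of them higher. The median was 0.9, 0.15 and 0.82 in animals 1, 2 and 3, and 0.57 with all tested probe sets of a gene averaged. Whether Toll-like receptors had a part in these values was not tested. CCL5, a chemokine for T cells and monocytes, had log2 values of 6.23 to 8 on the BV arrays (median 7.18) and 5.7 to 6.49 on the mock arrays (median 5.84). It was higher in 6 of 6 pairs and differed by 1.15 ± 0.16 (limma adjusted p = 0.244), at 0.95, 1.4 and 1.1 in the 3 animals. CXCL10, induced by interferon, differed by 1.88 ± 0.67 (adjusted p = 0.564), at 1.31, 0.28 and 4.04 in the 3 animals. Its pair differences ran from -0.42 to 5.41, the largest in the pair of replicate 6. The monocyte chemokine CCL2 differed by 0.83 ± 0.43 (adjusted p = 0.571), at 1.87, -0.55 and 1.16, so it was lower in animal 2. CXCL8, a neutrophil chemokine named after its value was seen, differed by 0.77 ± 0.17 (adjusted p = 0.44). TNF and IFNB1 were too dim to judge, so the interferon-beta transcript itself cannot be followed here.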

How the data were processed

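RNA of 12 brain pieces was labelled (5 µg each) and hybridised to a rhesus macaque array. The authors deposited 1 intensity per probe set and array on a linear scale. GCOS 1.4.0.036 is the software in the submitters' processing notes. Its summary algorithm and scaling target are unknown here, and detection calls were not used. Per the labels' protocols, kits from 2 suppliers were used for labelling, and the arrays of each are not stated. Array medians were 25.4 to 32.7 for piece 2 and 50.2 to 62.8 for piece 1, so the arrays were quantile-normalized before log2(signal + 3.49), the 10th percentile of all intensities being added, which understates folds of dim probe sets. After removal of 99 control probe sets, those under the 40th percentile of mean log2 value (4.95) were not tested and are called too dim to judge. Symbols came from the platform annotation, in which 24969 probe sets have 1 symbol, 361 several and 27535 none; they can be outdated, and cynomolgus RNA may bind rhesus probes less well.

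Hemisphere means were fitted in limma 3.58.1 (R 4.3.3) with animal as block and 2 residual degrees of freedom, eBayes with trend, two-sided. Samples are paired because both hemispheres belong to 1 animal; deviations of both hemispheres from the group means correlated at 0.62, 0.16 and 0.36 in the 3 animals. The script was tested on simulated data. Genes were named by rule: every probe set of the 10 genes, the 3 closest pair patterns, and up to 3 genes of largest absolute difference per pathway role. The same limit held for the lists of neutrophils and monocytes, of microglia and macrophages, and of B cells and plasmacytoid dendritic cells. Some genes too dim or without a probe set were named as such. CXCL8, ITGAM and CX3CR1 were added after their values were seen. Other lists are given by medians. Members and lists were chosen with earlier results of these data known, so no list was tested as a set. Precision is limited by having 12 arrays of 3 animals.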

Additional observations from a re-analysis of the deposited data

Results flagged for a closer look

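In 3 of the 30 groups of 6 arrays examined, 15 probe sets in BV and in mock tissue, 1 array stood far from the others by Dixon's criterion, which chance alone meets in about 1 of 20 groups. On the mock arrays of TLR8, replicate 1 had a log2 value of 2.74, with a gap to the next array that was 0.66 of the range of the group. On the mock arrays of the second TLR7 probe set, replicate 5 had 7.1, with a gap of 0.67 of the range. On the BV arrays of the faintest TLR7 probe set, which is too dim to judge, replicate 5 had 3.1, with a gap of 0.68.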

How the results depend on the processing

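LY96, TLR1, TLR2, TLR8, the second TLR4 probe set and TLR9 kept their direction under every alternative run that tested them. With the filter at the 60th percentile TLR2, TLR5 and TLR8 were not tested. Over all alternatives LY96 ranged from 0.84 to 1.85, TLR2 from 0.58 to 1.89 and TLR1 from 0.48 to 1. The adjusted p of LY96 ran from 0.000577, without animal 2, to 0.999. The brightest TLR7 probe set, at 0.00, changed sign without normalization (0.01), with median centring (0.15), with piece 1 arrays alone (0.14) and with quantile normalization within piece sets (0.01), the last an alternative chosen after seeing the data. TLR5 turned to -0.15 with piece 1 arrays alone and the second TLR7 probe set to -0.06 with piece 2 arrays alone. With 1 array or animal left out, ranges were -0.18 to 0.16 for the brightest and -0.07 to 0.18 for the second TLR7 probe set, -0.05 to 0.42 for TLR5 and -0.05 to 0.5 for the brightest TLR4 probe set; the cause was not tested. The count of passing members was 0 throughout except 3 without animal 2 (range 0 to 3).

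The count over all probe sets, 9, was 5 with no filter (52766 tested), 1 without normalization, 1 without the variance trend, 55 with the replicate block, 38 with a term for piece, 85 with duplicateCorrelation (estimated correlation within hemispheres -0.25), 14 with only the piece 1 arrays and 0 with only those of piece 2 (limma, where 1747 had an unadjusted p below 0.05), and 0 to 1845 with 1 array or animal left out. Leaving out mock replicate 5 gave 0 in limma, where 1703 had an unadjusted p below 0.05, and leaving out animal 2 gave 1845. Other counts were 1 without animal 1, BV replicate 6 or mock replicate 3, 82 without animal 3, 43 without mock replicate 6, 28 without mock replicate 4 and 15 without BV replicate 3. In the paired fit with the replicate block no probe set of the 10 genes passed. The median over tested members, 0.42, ranged from 0.16 to 0.63 with 1 array or animal left out. Without normalization 39.8% of all tested probe sets were higher in BV tissue, with median centring 59.8%, against 46.9%.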
